A study of Mus musculus with 2 samples.

Results

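Axon guidance genes encode ligands that attract or repel growing axons and migrating cells, together with the receptors that read them. The genes described here were taken by symbol: class 3 to 7 semaphorins and their plexin and neuropilin receptors, Slits and Robos, netrins with the receptors Dcc and Unc5, and the ephrins with the Eph receptor tyrosine kinases. Of the 27998 gene identifiers in the files, 70 were members, 36 for ligands and 34 for receptors. They carried 68 distinct symbols, as 3 identifiers share the symbol *Ntn5*, and the 2 of those that had no match in the GENCODE annotation held no UMI.

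Cells were dissociated from both optic areas of a single C57BL/6J embryo at the 26 somite stage (E9.25) for either genotype, wild-type (WT) or *Mab21l1*-null (KO), and 1 single-cell library was made per embryo. A unique molecular identifier (UMI) marks 1 captured transcript. *Mab21l1*, the disrupted gene, was counted in both libraries, at 20.3 UMIs per 1000000 (CPM) in the WT-labelled library and 32.5 CPM in the KO-labelled library, so the gene's total over all cells does not tell the labels apart. In the surface ectoderm class described below it ran the other way, from 108 UMIs, or 79.9 CPM, in the WT-labelled library to 38 UMIs, or 42.9 CPM, in the KO-labelled library, a ratio of 0.537 [0.361, 0.783]. With 1 embryo per genotype, no difference has a replicate check, no test was made, and an effect of the genotype cannot be told apart from one of the embryo, its exact age, the dissection or the library.

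Semaphorins signal through plexins, and the secreted class 3 members mostly need a neuropilin co-receptor. Slits repel through Robo receptors, and Netrin 1 signals through Dcc and the Unc5 receptors. Ephrin-A ligands are held by a lipid anchor and bind mainly EphA receptors, ephrin-B ligands span the membrane and bind mainly EphB receptors, and in the retina both systems later map axons along its axes. Several of these molecules also act in blood vessels, where *Efnb2* and *Ephb4* are known for arteries and veins, and in neural crest migration.

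After filtering, 1680 cells with 41880035 UMIs remained in the WT-labelled library and 2404 cells with 52430844 UMIs in the KO-labelled library. The members took 31163 UMIs, 0.0744%, in the WT-labelled library and 40264 UMIs, 0.0768%, in the KO-labelled library. Cells were placed in classes by marker genes of which none is a member, and 3683 of 4084 cells entered a class. The WT-labelled library gave 62 surface ectoderm, 832 neuroepithelial, 476 mesenchymal, 63 endothelial, 33 neural crest and 36 erythroid cells. The KO-labelled library gave 45, 1200, 753, 99, 35 and 49 cells of these classes in the same order. Within the neuroepithelium, 187 and 366 cells were retina-like, 127 and 148 pigment epithelium-like and 87 and 122 forebrain-like. All markers were at least 2-fold above the other cells in both libraries for each class, except that 7 of 9 were so for the neuroepithelium. The same markers had placed the cells, so their height is no separate check of the class names. Another 85 and 89 cells passed several gates and were left out, with a median of 33838 and 31511 UMIs per cell, and 15 barcodes had the same letters in both libraries. Brackets give exact 95% intervals, Poisson for a level and conditional binomial for a ratio, which cover counting error only.

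Erythroid cells, which carry few guidance transcripts, served as a reference for free RNA in the droplets. There 38 of the 70 members had no UMI in either library, and 68 lay at or below 3 CPM in both. *Plxna1*, the second highest, reached 3.12 CPM. *Plxnd1*, the highest, lay at 7.02 CPM [3.21, 13.3] in the WT-labelled library and 8.17 CPM [4.46, 13.7] in the KO-labelled library. Levels of 3 CPM or less in other classes are therefore within what was counted in cells that should lack these transcripts. Erythroid cells had the most UMIs, a median of 32480.5 and 33437 per cell, against 18894 and 15535 in the mesenchyme. The same amount of free RNA per droplet would give a higher CPM in shallower classes, so the limit may be too low there.

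Over all kept cells, 52 of the 70 members reached 100 UMIs. Members below that included *Dcc* with 7 and 5 UMIs, *Slit1* with 2 and 6, *Robo3* with 0 and 1 and *Sema3e* with 34 and 54 in the libraries labelled WT and KO. By class, 20 members were at least 3-fold above all other gated cells in some class in both libraries, in 21 pairs of member and class. The endothelium held 7 of its 11 members with at least 100 UMIs at that size, beside 10.0% of all genes. The corresponding counts were 3 of 9 in the surface ectoderm beside 2.54% of all genes, 5 of 41 in the neuroepithelium beside 4.28%, 5 of 31 in the mesenchyme beside 3.46% and 1 of 1 in the neural crest beside 1.67%. No member reached 100 UMIs in erythroid cells, where 6.74% of all genes passed. The 100 UMIs were asked for in the class itself, so many of these members, such as *Robo4*, reached them only through being high there. Nothing is read from these counts beside the shares of all genes.

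**Figure D1:**
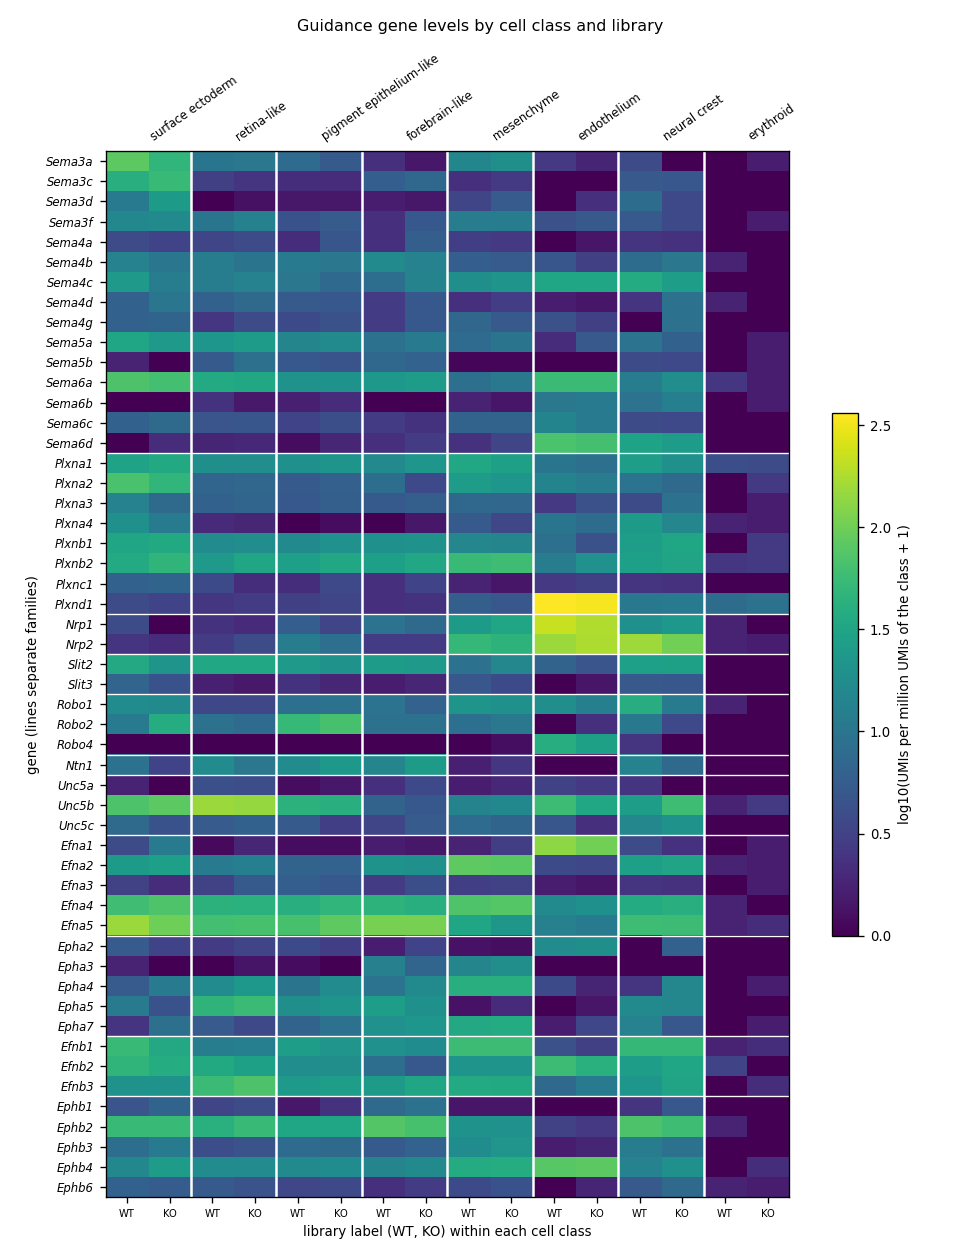
Levels of the 52 members with at least 100 UMIs, as log10 of CPM plus 1 (colour), in 8 cell classes (column pairs) of the libraries labelled WT and KO, with families separated by white lines. Paired columns look alike for most genes, the endothelium stands out for *Plxnd1*, *Nrp1*, *Nrp2*, *Efna1*, *Sema6d* and *Robo4*, and the erythroid columns are dark.

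The endothelial genes covered receptors for semaphorins, Slits and ephrins, and the promoters of the semaphorin receptor *Plxnd1* and of the transmembrane semaphorin *Sema6d* are shown as examples of genes counted mostly in this class. Capitals mark GGAAG on either strand, a core bound by ETS factors, a family known for endothelial genes. The stretches end 1 base before the RefSeq start on GRCm38.p6, on the minus strand at chr6:115995006-115995255 for *Plxnd1* and on the plus strand at chr2:124089719-124089968 for the first of the *Sema6d* starts.
Plxnd1: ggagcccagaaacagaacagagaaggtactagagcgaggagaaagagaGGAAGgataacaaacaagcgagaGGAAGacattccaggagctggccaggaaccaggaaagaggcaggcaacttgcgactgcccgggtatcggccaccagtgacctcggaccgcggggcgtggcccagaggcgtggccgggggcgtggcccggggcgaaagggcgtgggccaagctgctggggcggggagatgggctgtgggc
Sema6d: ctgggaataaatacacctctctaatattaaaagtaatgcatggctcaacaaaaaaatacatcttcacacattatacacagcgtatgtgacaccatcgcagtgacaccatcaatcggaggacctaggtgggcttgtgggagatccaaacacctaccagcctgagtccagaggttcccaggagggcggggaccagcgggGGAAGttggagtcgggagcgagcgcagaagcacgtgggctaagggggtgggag
*Plxnd1* held 2 matches, starting at positions -202 and -179 from the start site, and *Sema6d* held 1 at -53. In all, 6 of the 7 endothelial members held a match within 250 bases of any of their listed starts. Counted by single promoter, 64.1% of all 32851 RefSeq promoters in the table held one, so the match does not set these genes apart. A gene with several starts has more chances of a match than a single promoter.

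*Plxnd1*, a plexin of vessels (chromosome 6, 115954811 to 115995005), lay at 364 CPM [336, 393] in endothelial cells of the WT-labelled library and 332 CPM [310, 356] in those of the KO-labelled library. All other gated cells lay at 2.69 and 2.84 CPM, a ratio of 135 [109, 169] and 117 [97.0, 142]. *Robo4*, an endothelial Robo (chromosome 9, 37401897 to 37415115), was counted 69 and 67 times in the endothelium, and only 1 and 3 times in all other gated cells. Its level in the endothelium was 38.2 and 27.9 CPM, and the ratio to other cells was 1349 [234, 54029] and 422 [138, 2100]. *Efna1*, an ephrin-A ligand (chromosome 3, 89271733 to 89281142), lay at 132 and 103 CPM against 0.651 and 1.19 CPM in other cells. *Sema6d* (chromosome 2, 124089969 to 124667770) lay at 68.1 and 63.7 CPM against 1.81 and 1.98 CPM, though the neural crest reached 29.7 and 25.1 CPM. These 4 members had the highest ratios of the class in both libraries.

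The neuropilins, which bind class 3 semaphorins and vascular growth factors, followed. *Nrp1* lay at 219 and 179 CPM in the endothelium against 9.01 and 10.3 CPM elsewhere. *Nrp2* was shared: it lay at 149 and 176 CPM in the endothelium, 153 and 104 CPM in the neural crest and 49.8 and 44.5 CPM in the mesenchyme. It was the neural crest's only member with 100 UMIs, at 6.75 [5.47, 8.26] and 4.62 [3.63, 5.80] times the level of other cells. In the surface ectoderm both neuropilins were near the free RNA level, *Nrp1* with 4 and 0 UMIs and *Nrp2* with 2 and 1.

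*Ephb4*, the receptor of veins (chromosome 5, 137350109 to 137378669), lay at 78.0 CPM [65.7, 92.0] and 82.1 CPM [71.0, 94.4] in the endothelium, 3.87 and 3.85 times the level elsewhere. Its partner *Efnb2*, the ephrin of arteries, was not particular to the class by the 3-fold size. It lay at 55.9 and 41.2 CPM there, with 46.6 and 37.2 CPM in the surface ectoderm, 34.7 and 27.8 CPM in retina-like cells and 20.3 CPM in the mesenchyme of both libraries. Both partners were thus present in the endothelial class; whether single cells separate into arterial and venous ones was not examined.

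**Figure D2:**
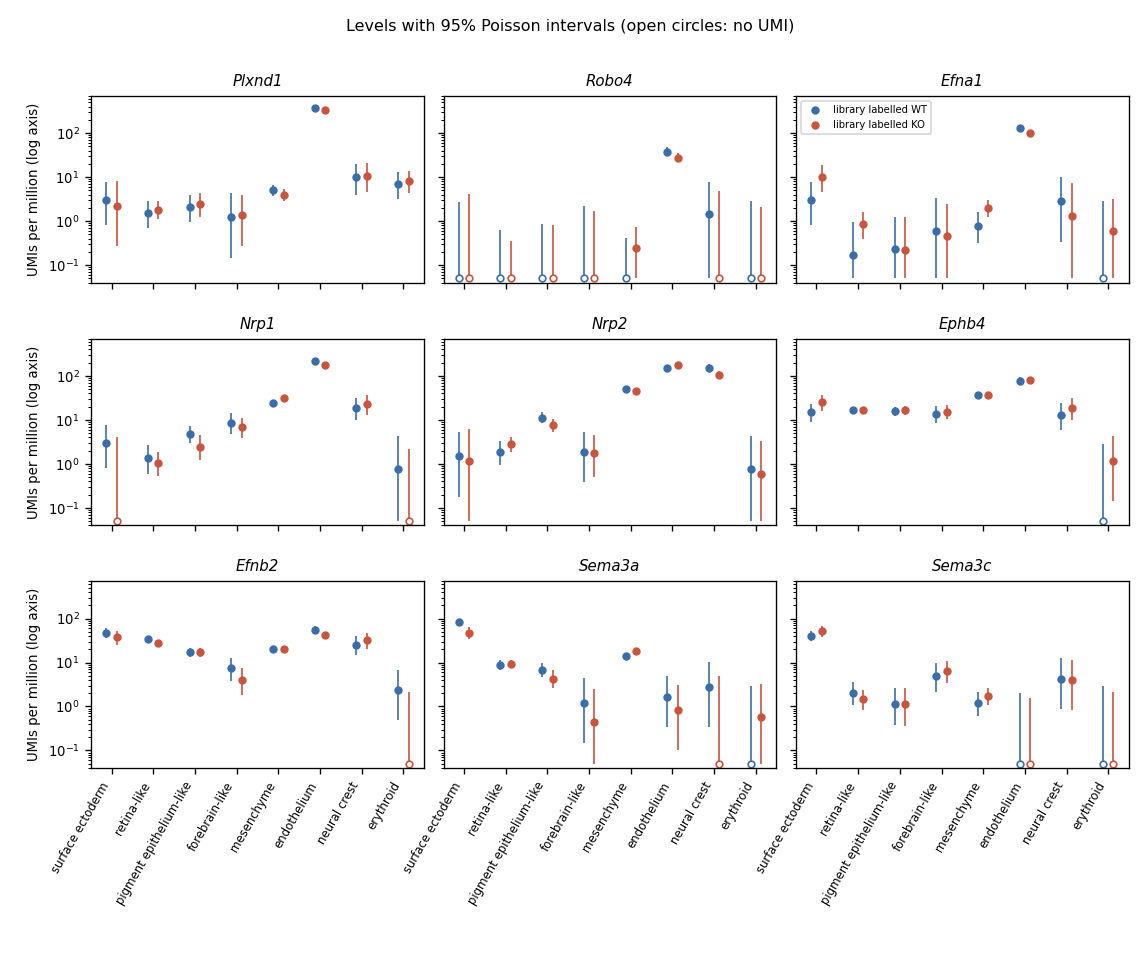
Levels of 9 members in CPM (log axis) in 8 classes, for the libraries labelled WT (blue) and KO (red); bars are exact 95% Poisson intervals and open circles mark classes without a UMI. *Robo4* reaches 38.2 and 27.9 CPM in the endothelium and is at or near 0 elsewhere, while *Efnb2* is spread over most classes and *Sema3a* and *Sema3c* peak in the surface ectoderm.

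In the surface ectoderm 2 class 3 semaphorins and a plexin passed the 3-fold size. *Sema3c* (chromosome 5, 17574281 to 17730268) lay at 40.7 CPM [30.6, 53.0] and 51.9 CPM [38.0, 69.2] against 1.65 and 2.28 CPM in other cells, a ratio of 24.7 and 22.8. *Sema3a* (chromosome 5, 13125414 to 13602565), a repellent of axons and neural crest cells, lay at 82.1 and 47.4 CPM against 7.63 and 8.14 CPM. The receptor *Plxna2* lay at 65.8 and 47.4 CPM against 10.8 and 9.38 CPM. These ligands and the neuropilins were thus highest in different classes, the latter in the endothelium, neural crest and mesenchyme.

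The ectoderm could be divided by lens placode markers into 38 and 16 placode-like cells and 19 and 22 others. Because these markers may themselves differ between the genotypes, the division is read within each library. *Plxna2* lay at 11.8 and 9.14 CPM in placode-like cells against 205 and 90.3 CPM in the others, and *Sema3c* at 17.2 and 36.5 CPM against 109 and 70.9 CPM. *Sema3a* was also lower in placode-like cells in both libraries. *Unc5b* ran the other way, at 91.1 and 132 CPM in placode-like cells against 26.5 and 25.8 CPM, as did *Slit2*, at 42.9 and 27.4 CPM against 13.2 and 9.67 CPM. In all 2 of 16 members with at least 50 UMIs were higher and 3 lower by at least 1.5-fold in both libraries, beside 2.86% and 5.01% of all genes. The 50 UMIs were summed over both sides, and *Plxna2*, *Sema3c* and *Slit2* reached them only through the side where they were higher. Nothing is read from such counts, here or in the divisions below. The placode division, those by pigment epithelium and forebrain and that of the mesenchyme were added after the dorsal-ventral axis had been chosen for comparison.

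In the neuroepithelium the 5 members past the 3-fold size were the class 5 semaphorin *Sema5b*, the Eph receptors *Epha5* and *Ephb1*, and *Ntn1* with its receptor *Unc5b*. *Sema5b* (chromosome 16, 35541145 to 35664732) lay at 4.66 and 5.64 CPM with 4 UMIs in all other gated cells of each library. *Epha5* (chromosome 5, 84054761 to 84417382), a receptor of retinal axons, lay at 32.2 CPM [29.9, 34.6] and 36.1 CPM [33.9, 38.3] against 1.98 and 1.57 CPM. The neural crest reached 15.6 and 14.5 CPM of *Epha5*, from 11 UMIs in each library, and the surface ectoderm 10.4 and 3.39 CPM. *Ntn1* (chromosome 11, 68209364 to 68400823) lay at 18.4 and 15.1 CPM against 1.84 and 1.46 CPM. It too was counted in the neural crest, at 12.7 and 6.61 CPM from 9 and 5 UMIs. In the surface ectoderm *Ntn1* lay at 8.14 and 2.26 CPM, from 11 and 2 UMIs. *Ephb1*, known for routing axons at the chiasm, was low, at 3.31 and 3.80 CPM, but 4.67 and 5.22 times above the rest. It was not particular to the neuroepithelium, as it lay at 3.70 and 5.64 CPM in the surface ectoderm, from 5 UMIs in each library.

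*Unc5b* passed the size in the neuroepithelium too, and its level depended on the region. It lay at 148 CPM [138, 158] and 143 CPM [135, 150] in retina-like cells, 43.0 and 39.9 CPM in pigment epithelium-like cells and 5.50 and 4.04 CPM in forebrain-like cells. Its counts outside the neural classes were not low, with 69.5 and 82.4 CPM in the surface ectoderm and 56.5 and 33.3 CPM in the endothelium. *Dcc*, the attractive netrin receptor, had no UMI in retina-like cells of the WT-labelled library and 2 in those of the KO-labelled library. The upper limit for a count of 0 there was 0.631 CPM by the exact interval. *Unc5a* lay at 3.25 and 3.00 CPM in retina-like cells, and *Unc5d* was counted 9 and 10 times in all cells.

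Pigment epithelium-like cells differed from retina-like cells in 16 of 41 members with at least 50 UMIs, 6 higher and 10 lower in both libraries, beside 5.67% and 3.64% of all genes. *Robo2*, a Slit receptor, lay at 51.2 CPM [44.7, 58.4] and 65.0 CPM [57.8, 73.0] in pigment epithelium-like cells against 8.21 and 6.87 CPM, with the highest ratio of the 6 in both libraries. *Robo1*, *Nrp2*, *Ephb3* and *Efnb1* were also higher there. *Nrp1* was the last of the 6, at 4.80 against 1.37 CPM and, from 11 UMIs in either region of the KO-labelled library, 2.47 against 1.06 CPM, a ratio of 2.32 [0.911, 5.90] that turned to 0.944 with a stricter gate. The lower members included *Efnb3*, at 23.3 and 25.6 CPM against 55.3 and 69.7 CPM, and *Epha5*, at 18.1 and 20.2 CPM against 45.9 and 54.5 CPM. *Slit2*, the ligand of the Robo receptors, was counted in both regions, at 33.0 and 33.5 CPM in retina-like cells and 22.6 and 19.5 CPM in pigment epithelium-like cells.

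Forebrain-like cells were higher than retina-like cells in 5 and lower in 10 of 38 members, beside 4.44% and 5.42% of all genes. *Epha7* lay at 19.0 and 21.1 CPM against 4.45 and 2.71 CPM, and *Efna5* at 108 and 109 CPM against 61.6 and 64.6 CPM. *Ephb1*, *Efna2* and *Robo1* completed the higher group, but with a stricter gate the ratio of *Ephb1* was 0 in the WT-labelled library. *Efnb2* was lower, at 7.34 and 4.04 CPM against 34.7 and 27.8 CPM, as was *Sema3a*, with 2 and 1 UMIs against 52 and 98.

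In the mesenchyme the 5 members past the 3-fold size were ephrin system genes. *Epha3* (chromosome 16, 63543534 to 63864175) lay at 13.7 CPM [11.4, 16.3] and 17.4 CPM [15.1, 19.9] against 0.924 and 0.812 CPM in other cells. In forebrain-like cells *Epha3* lay at 12.2 and 5.84 CPM, from 20 and 13 UMIs. The ligand *Efna2* (chromosome 10, 80179482 to 80190010) lay at 82.7 and 80.4 CPM against 10.7 and 10.9 CPM. *Epha7* lay at 34.3 and 36.9 CPM against 5.94 and 6.35 CPM, and *Ephb3* at 16.7 and 20.6 CPM against 4.30 and 4.31 CPM. The X-linked ligand *Efnb1* was the fifth, 3.36 and 3.82 times above the rest, but it was shared. It lay at 56.4 and 55.9 CPM in the mesenchyme, 49.5 and 50.3 CPM in the neural crest and 52.5 and 33.9 CPM in the surface ectoderm. A ligand and receptors of the A class were thus counted in the same class of cells.

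Within the mesenchyme, cells rich in *Alx* genes and cells rich in *Foxc* genes differed in 5 of 25 members, 1 higher and 4 lower in the former, beside 2.11% and 2.07% of all genes. *Unc5b* had 33 UMIs in *Alx*-rich cells of the WT-labelled library and none in *Foxc*-rich cells, for which the interval of the ratio began at 2.52. In the KO-labelled library it lay at 15.3 against 7.18 CPM, a ratio of 2.14 [0.903, 5.83] that turned to 0.794 with a stricter gate. *Efnb2* lay at 14.6 and 13.0 CPM in *Alx*-rich cells against 26.9 and 47.2 CPM in *Foxc*-rich cells. *Nrp1*, *Slit2* and *Epha3* were the other lower members.

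Retina-like cells were then divided by *Tbx5* and *Vax2*, transcription factors of the dorsal and ventral retina. *Tbx5* alone was counted in 39 and 56 cells and *Vax2* alone in 101 and 210. Of 28 members with at least 50 UMIs over these cells, 7 were at least 1.5-fold higher and 2 lower on the dorsal side in both libraries, beside 4.43% and 3.29% of all genes. *Sema3a*, *Unc5c* and *Ntn1* reached the 50 UMIs only through the side where they were higher, so nothing is read from these counts. With a gate that asked for 1 more marker, 4 members in place of 9 passed in both libraries. Each library is a separate embryo, so the direction was read in 2 embryos, which differ in genotype.

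*Unc5b* had the most UMIs of the dorsal members. It lay at 396 CPM in dorsal cells and 60.9 CPM in ventral cells of the WT-labelled library, a ratio of 6.50 [5.51, 7.68]. In the KO-labelled library it lay at 382 and 65.1 CPM, a ratio of 5.86 [5.16, 6.67]. Its ligand *Ntn1* ran the other way, with 0 UMIs in dorsal cells against 87 in ventral cells, and 1 against 86 in the KO-labelled library. The dorsal over ventral ratio of *Ntn1* was 0 [0, 0.132] in the WT-labelled library and 0.0501 [0.00125, 0.286] in the KO-labelled library. *Unc5b* was still counted ventrally, with 213 and 414 UMIs, so ligand and receptor were both counted in the ventral cells.

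*Efnb2*, known as a dorsal ligand of the retina, lay at 73.4 against 22.9 CPM in the WT-labelled library and 56.9 against 21.9 CPM in the KO-labelled library, a ratio of 3.21 [2.33, 4.41] and 2.60 [1.96, 3.44]. *Efnb1* was higher dorsally by 1.97 [1.06, 3.57] and 1.62 [0.959, 2.66]. Their receptor *Ephb2*, known as ventral, was lower dorsally, with ratios of 0.740 [0.508, 1.06] and 0.607 [0.451, 0.805]. It passed the 1.5-fold size in the KO-labelled library only. *Sema3a* lay at 23.6 against 2.57 CPM and 27.1 against 3.46 CPM, a ratio of 9.17 and 7.83. *Unc5c*, *Robo2* and *Epha5* were the other dorsal members, with ratios of 5.67 and 3.23, 3.63 and 3.41, and 1.53 and 2.09. *Efna5* was higher ventrally, at 74.4 against 37.6 CPM and 73.1 against 46.0 CPM.

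**Figure D3:**
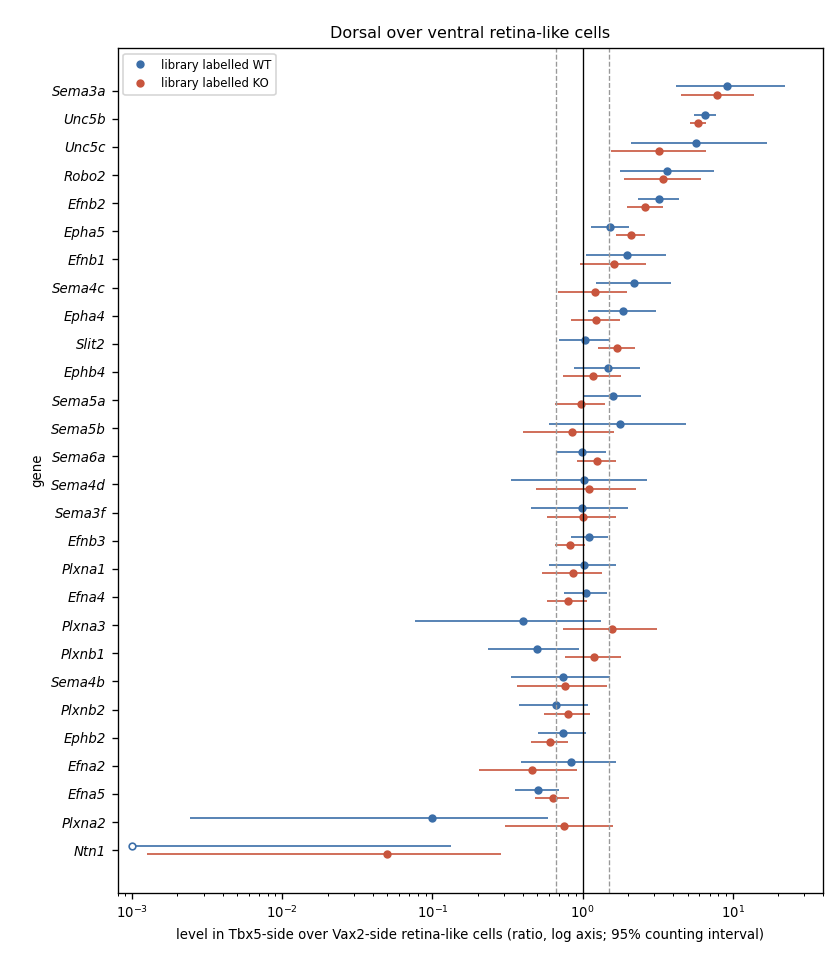
Ratio of the level in dorsal (*Tbx5* only) over ventral (*Vax2* only) retina-like cells (log axis) for 28 members in the libraries labelled WT (blue) and KO (red); bars are 95% counting intervals, dashed lines mark 1.5-fold, and the open circle marks *Ntn1* without a dorsal UMI. *Sema3a*, *Unc5b*, *Unc5c*, *Robo2* and *Efnb2* lie to the right in both libraries, and *Ntn1* and *Efna5* to the left.

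Levels in the KO-labelled library over those in the WT-labelled library could be formed for 100 pairs of class and member with at least 100 UMIs, over 41 members. Only 8 pairs, each of another member, lay past 1.5-fold, 3 higher and 5 lower, and none past 2-fold. Over all genes, 1.33% of 41581 such pairs were higher and 1.51% lower. Of the 8 pairs, *Efnb1* in the surface ectoderm, *Sema5b* in retina-like cells and *Epha4* in pigment epithelium-like cells reached 100 UMIs only through the library in which they were higher. With both libraries at the lower level they would have had 76, 69 and 77 UMIs, so that they had to differ to be counted and nothing is read from a count that holds them. The other 5 pairs passed at the lower level too. The median log2 ratio of the members was -0.19 in the surface ectoderm, 0.08 in retina-like cells, 0.15 in pigment epithelium-like cells, 0.00 in the mesenchyme and -0.13 in the endothelium. The median over all genes lay between 0.00 and 0.04 in the 8 classes.

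In the surface ectoderm 3 of 9 members were lower and none higher, beside 3.60% and 2.38% of all genes. *Sema3a* was counted 111 times, at 82.1 CPM [67.5, 98.9], in the WT-labelled library and 42 times, at 47.4 CPM [34.2, 64.1], in the KO-labelled library, a ratio of 0.577 [0.395, 0.830]. *Efna5* lay at 150 CPM [130, 172] and 99.3 CPM [79.6, 122], a ratio of 0.661 [0.509, 0.853]. *Efnb1* lay at 52.5 and 33.9 CPM, a ratio of 0.645 with an interval from 0.406 up to 1, and it fell short of the size under 3 of 6 alternatives. Without it, 2 members were lower. The placode gate passed 38 cells of the WT-labelled library and 16 of the KO-labelled library. Genes that it counts were themselves lower in the ectoderm of the KO-labelled library, *Maf* with a ratio of 0.482 [0.355, 0.646], *Pitx3* 0.0934 [0.0186, 0.289] and *Sfrp2* 0.461 [0.393, 0.538], while *Sox2* lay at 1.06 [0.768, 1.45]. Fewer placode cells and less of these transcripts per cell cannot be told apart here, and their part in the *Sema3a* and *Efna5* values was not tested. In the libraries labelled WT and KO, *Sema3a* lay at 69.7 and 22.8 CPM in placode-like cells and 116 and 70.9 CPM in the others. *Efna5* lay at 144 and 91.4 CPM in placode-like cells and 155 and 80.6 CPM in the others. These differences were not tested, and the gate may pass unlike cells in each library, as genes that it counts differed between them.

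In retina-like cells 1 of 25 members was lower and 1 higher, beside 0.783% and 0.959% of all genes, the higher one being *Sema5b*, which was counted only through the KO-labelled library. *Ntn1* lay at 16.3 CPM [13.2, 19.9] and 9.29 CPM [7.52, 11.3], a ratio of 0.571 [0.426, 0.767]. Nearly all of it was ventral, where it lay at 24.9 and 13.5 CPM, and the ventral cells were 101 of 187 and 210 of 366 retina-like cells. *Sema5b* lay at 4.28 and 7.84 CPM, a ratio of 1.83 [1.16, 2.99], from 25 and 81 UMIs. Both fell short of the size with a stricter gate, and the part of the make-up of the class was not tested. *Unc5b*, the member with the most UMIs in these cells, lay at 148 and 143 CPM.

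In pigment epithelium-like cells *Epha4*, a receptor for both ephrin classes (chromosome 1, 77367185 to 77515088), lay at 8.69 CPM [6.15, 11.9] and 16.4 CPM [12.8, 20.6], a ratio of 1.88 [1.26, 2.87]. It fell short of the size under 3 of 6 alternatives, and it was counted only through the KO-labelled library. No other of the 18 members was higher, beside 1.22% of all genes, and none was lower, beside 1.12%. In retina-like cells *Epha4* had a ratio of 1.38 [1.08, 1.78]. In forebrain-like cells none of 5 members passed the size in either direction, beside 1.85% of all genes higher and 1.56% lower.

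In the mesenchyme *Slit2* (chromosome 5, 47983138 to 48307733) lay at 8.01 CPM [6.27, 10.1] and 14.2 CPM [12.1, 16.4], a ratio of 1.77 [1.33, 2.36]. It was 1 of 31 members, beside 1.05% of all genes higher, and none was lower, beside 1.43%. In *Alx*-rich mesenchyme *Slit2* had 6 and 25 UMIs, or 4.37 and 14.7 CPM, and in *Foxc*-rich mesenchyme 9 and 24 UMIs, or 22.0 and 24.6 CPM. *Foxc*-rich cells made up 26 of 476 and 69 of 753 mesenchymal cells, and their part in the difference was not tested. *Efna5*, lower in the surface ectoderm, lay at 31.2 and 21.7 CPM in the mesenchyme, a ratio of 0.696 [0.586, 0.827] that stopped short of the size. The Slit receptors *Robo1* and *Robo2* had ratios of 0.914 [0.747, 1.12] and 1.25 [0.921, 1.71] there.

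In the endothelium *Unc5b*, which is known for vessel tip cells, lay at 56.5 CPM [46.0, 68.5] and 33.3 CPM [26.4, 41.5], a ratio of 0.590 [0.435, 0.799]. It was the 1 lower member of 11, beside 2.07% of all genes, and none was higher, beside 1.28%. Its ratio was 0.671 without the mitochondrial limit and 0.720 with means of per-cell levels, both short of the size. *Efnb2* had a ratio of 0.738 [0.553, 0.983], *Nrp1* 0.815 [0.710, 0.937], *Robo4* 0.731 [0.514, 1.04], *Nrp2* 1.18 [1.01, 1.38] and *Ephb4* 1.05 [0.843, 1.31]. In the neural crest *Nrp2* had a ratio of 0.683 [0.505, 0.922] and did not reach the size, beside 2.63% of all genes higher and 1.01% lower.

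**Figure D4:**
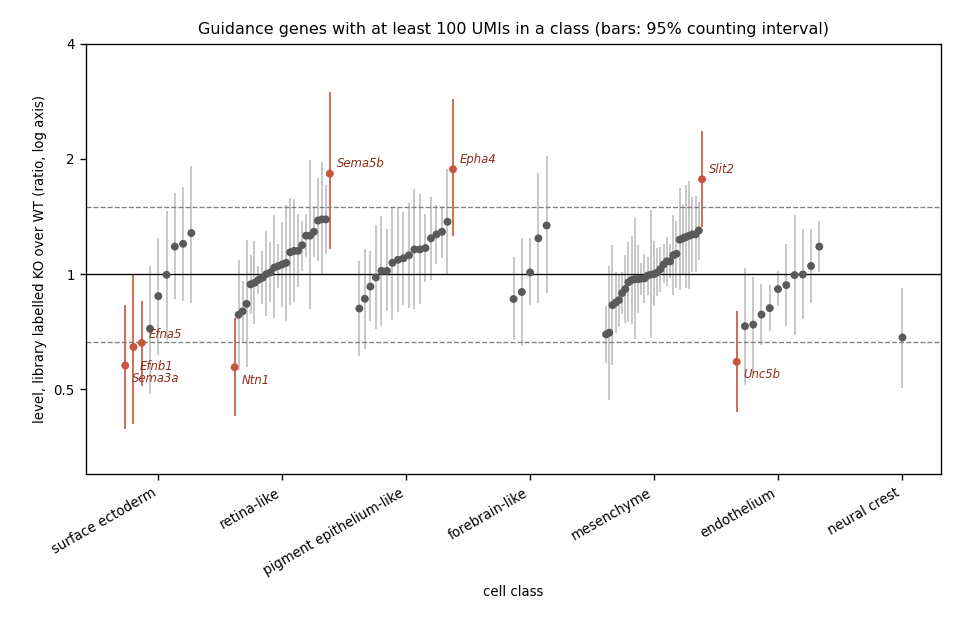
Ratio of the level in the KO-labelled library over that in the WT-labelled library (log axis) for the 100 pairs of member and class, grouped by class; bars are 95% counting intervals and dashed lines mark 1.5-fold. The 8 pairs past 1.5-fold are named and red, 3 above and 5 below, and the rest lie between the dashed lines.

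Genes that carry guidance signals inside the cell or help the receptors at its surface were followed with a list of 60, all of them in the files. Of 189 pairs of class and gene with at least 100 UMIs, 6 were lower and 2 higher past 1.5-fold in the KO-labelled library, or 3.17% and 1.06% beside the 1.51% and 1.33% of all genes, and none reached 2-fold. *Rac1*, a small GTPase that drives actin assembly at the leading edge, made up 3 of the 6, in the surface ectoderm at 0.645 [0.514, 0.805], in pigment epithelium-like cells at 0.661 [0.582, 0.749] and in erythroid cells at 0.557 [0.399, 0.772]. It lay below 1 in all 8 classes, with neural crest at 0.859 [0.660, 1.12] nearest to it. *Dpysl2*, which passes semaphorin signals to microtubules, had a ratio of 0.536 [0.383, 0.740] in the surface ectoderm, and its ratio lay between 0.691 and 0.803 in retina-like, pigment epithelium-like, forebrain-like, mesenchymal and endothelial cells, with 1.06 [0.737, 1.53] in the neural crest. The other lower pairs were *Ablim1* in the endothelium and *Rock1* in erythroid cells. With 58 and 47 UMIs, *Rock1* reached 100 only through the WT-labelled library, so nothing is read from the count of 6 lower pairs. The higher pairs were *Dpysl3* and *Flrt3* in forebrain-like cells. The genes of this paragraph were named after their values were seen. The erythroid background was 1.96% of all genes lower and 0.592% higher, and the other classes have theirs above.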

How the data were processed

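Single-cell 3′ RNA libraries of the ocular area, 1 embryo per genotype, were counted by the authors with Cell Ranger on mm10 (GRCm38) and combined with its aggr program, which can subsample reads; the deposited counts are whole UMIs per gene and cell, not scaled. The libraries held 43636657 and 53148253 UMIs over 1745 and 2458 barcodes. The filter left cells with 1500 to 8000 genes and a mitochondrial share of no more than 5%. A cell entered a class by its number of markers with a UMI: at least 4 of 9 for surface ectoderm and mesenchyme, 5 of 9 for endothelium, 4 of 7 for neural crest, 5 of 8 for erythroid cells, and 3 of 9 neural or 4 of 7 retinal markers for the neuroepithelium. Retina-like cells had at least 6 retinal and at most 2 pigment markers, pigment epithelium-like cells at least 4 pigment and at most 5 retinal markers, and forebrain-like cells at least 2 forebrain, at most 3 retinal and at most 2 pigment markers. Lens placode-like cells had at least 4 of 7 placode markers and other ectoderm at most 2. Alx-rich cells had at least 3 *Alx* group and at most 1 *Foxc* group marker, and Foxc-rich cells at least 2 *Foxc* group and at most 1 *Alx* group marker. The 17 and 6 macrophage-like cells were not used.

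Levels are UMI sums per 1000000 UMIs of the class. Named are members at least 3-fold above other gated cells in both libraries, those past 1.5-fold between libraries with at least 100 UMIs, those past 1.5-fold in both libraries along the dorsal-ventral axis of the retina with at least 50 UMIs, and known partners. Members, markers and lists were chosen with earlier results of these data known. A comparison along another axis is not reported here. No test was possible with 1 library per genotype. Scrublet (scanpy 1.11.5, expected rate 0.05) called 4 and 7 doublets, which were kept; the number depended on the numerical kernel of the linear algebra library, which was held fixed, while no other value did. Graph clusters used 40 principal components at a resolution of 2, without the members. Of the members 68 matched GENCODE M21 and 60 the RefSeq promoter table. Scripts, tested on simulated counts, used scipy 1.17.1, numpy 2.4.6, matplotlib 3.10.9 and pandas 2.3.3 under Python 3.11.15.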

Additional observations from a re-analysis of the deposited data

Results flagged for a closer look

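*Plxna3* went in opposite directions along the dorsal-ventral axis of the 2 libraries, with a dorsal over ventral ratio of 0.399 [0.0766, 1.32] in the WT-labelled library and 1.57 [0.736, 3.11] in the KO-labelled library, from 3 and 12 dorsal UMIs. *Sema4a* did so between forebrain-like and retina-like cells, with a ratio of 0.510 [0.0563, 2.22] and 1.70 [0.770, 3.50]. These differences between the libraries were not tested.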

How the results depend on the processing

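The alternatives changed the mitochondrial limit, the doublets, the gate, the weighting of cells, the scaling and the sizes. Between libraries, 5 lower and 3 higher pairs became 8 and 8 with at least 50 UMIs and 1 and 1 with at least 200. At 2-fold they became 0 and 0. Graph clusters left 3 lower. Of the 8 pairs, 4 stayed past the size with these clusters, among them *Slit2* in the mesenchyme, a higher one. *Sema3a* and *Efna5* in the surface ectoderm, at 0.524 to 0.628 and 0.599 to 0.661, and *Slit2* in the mesenchyme, at 1.66 to 1.88, stayed past 1.5-fold under all 6 alternatives of gate, cells and scaling. The others did not: *Efnb1* reached 0.802 and *Epha4* fell to 1.22 at the least, under the stricter gate, per-cell means or graph clusters, *Ntn1* reached 0.853 and *Sema5b* 1.24 under the stricter gate or graph clusters, and *Unc5b* in the endothelium reached 0.720 without the mitochondrial limit or with per-cell means. The 21 pairs of member and class became 37 at 2-fold. Along the dorsal-ventral axis 9 members became 4 with the stricter gate. The 2 higher effector pairs became 1 with the stricter gate, with median-ratio scaling and with at least 200 UMIs, 6 with at least 50 and 0 at 2-fold, where the 6 lower pairs became 0 too. With the stricter gate the ratio turned for *Nrp1* in pigment epithelium-like over retina-like cells of the KO-labelled library (0.944), *Unc5b* in *Alx*-rich over *Foxc*-rich cells of the same library (0.794) and *Ephb1* in forebrain-like over retina-like cells of the WT-labelled library (0). The causes were not tested. *Unc5b* in *Alx*-rich over *Foxc*-rich cells of the WT-labelled library has no ratio, as the latter held none, and is left out of these comparisons. No paired analysis was possible because each genotype has 1 library and no test was made.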

Other observations

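Members with 50 to 99 UMIs in a class, below the number asked for above, gave 49 pairs, of which 5 were higher and 3 lower past 1.5-fold, or 10.2% and 6.12%. Over all genes 7.79% and 6.86% of 13756 such pairs were so, and nothing is read from the members' counts. *Unc5b* in the neural crest had 18 and 43 UMIs in the libraries labelled WT and KO, a ratio of 2.23 [1.26, 4.11], while it was lower in the endothelium. *Ntn1* in forebrain-like cells had 22 and 53 UMIs, a ratio of 1.77 [1.06, 3.06], opposite to its direction in retina-like cells. *Sema3d* in the mesenchyme had 22 and 53 UMIs, *Efna3* in retina-like cells 13 and 44 and *Plxnb2* in the endothelium 20 and 45. The lower pairs were *Slit2* in the surface ectoderm at 0.597 [0.326, 1.05], *Epha7* in retina-like cells at 0.609 [0.344, 1.08] and *Plxna4* in the mesenchyme at 0.572 [0.343, 0.946]. These genes were named after their values were seen, and no difference was tested.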
